A study of Oryctolagus cuniculus with 17 samples.

Results

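The genes described here are those that the transcription factor p53 is known to switch on, measured by RNA-seq in the lungs of preterm rabbits breathing 95% or 21% oxygen. A list of 37 such genes, here called members, was matched to the deposited table by gene symbol, and 32 were found among its 13827 entries at 13313 loci. The other members, FDXR, DCXR, TNFRSF10B, EPS8L2 and GDF15, were not analysed here. All 32 passed the filter on low counts, so all are among the 13142 genes tested.

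p53 is held at low levels by the ubiquitin ligase MDM2 and is stabilized when DNA is damaged or cells are stressed. It then binds its response elements and raises transcription of genes that stop the cell cycle, repair DNA, adjust metabolism or start apoptosis, and of genes such as MDM2 that switch p53 off again. Oxygen in excess produces reactive oxygen species that damage DNA, and the lung is the organ most exposed to inhaled oxygen.

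Pups of the New Zealand White rabbit were delivered by caesarean section on gestation day 28, all groups alike, and fed a milk replacer. They were kept in 95% oxygen, called hyperoxia, for 3, 5 or 7 days (groups HT3, HT5 and HT7), or in 21% oxygen, called normoxia, for the same times (NT3, NT5 and NT7). Each group holds 3 samples except HT5 with 2, 17 in all, and each sample is a homogenate of the whole right lung, made into poly(A) libraries that keep the strand. In such bulk tissue, fewer cells of a type and less RNA per cell cannot be told apart.

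Each sample held between 13123731 and 18111086 counts with every locus counted once, and CPM below are counts scaled to library size with the trimmed mean of M-values (TMM). Log2FC is the log2 ratio of hyperoxia to normoxia and is given with its standard error (SE). A gene is called when the adjusted p of edgeR's quasi-likelihood test, with Benjamini-Hochberg adjustment over all genes tested, is under 0.05. It is a differentially expressed gene (DEG) when that adjusted p is under 0.01 with a log2FC above 2 or below -2. The study used these limits with DESeq2's Wald test, so the DEG counts here are not its own. The labelled tissue carried its defining markers, with between 74539 and 198367 counts of the surfactant gene SFTPC per sample. The summed CPM of 6 alveolar type 1 cell markers was lower in hyperoxia, with 1984 to 2635 in HT7 against 6756 to 7605 in NT7, as was that of 6 endothelial markers, with 855 to 1220 in HT7 against 2075 to 2408 in NT7, and in each list 4 of 6 genes were called lower on day 7. Of 8 macrophage and monocyte markers, on day 7 CD68 rose, with 1179 to 1999 CPM in HT7 and 599 to 768 in NT7, and MARCO fell, with 7.48 to 21.8 and 25.3 to 91.5, and the list had a median log2FC of -0.21. Neutrophil markers summed to 1202 to 1706 CPM in HT3 and 311 to 804 in NT3. Of 7 genes, 0 were called on day 3 by edgeR (6 at an unadjusted p under 0.05) and 2 by DESeq2. By edgeR 2 were called higher on day 5, and 2 higher and 1 lower on day 7. Of 7 alveolar type 2 cell markers, 1 was called higher and 2 lower on day 7. Of 3 airway epithelium markers, TPPP3 fell on day 7, with 41.6 to 65.4 CPM in HT7 and 146 to 171 in NT7, and FOXJ1 and DNAH5 were not called, at a log2FC of -0.01 and -0.13. Of 3 erythroid markers, 2 were called lower on day 7, at sums of 47.3 to 67.1 CPM in HT7 and 118 to 202 in NT7. Of 6 lymphocyte markers, 4 were called lower on day 7, at sums of 1.74 to 2.60 CPM in HT7 and 5.33 to 9.11 in NT7. The 6 skeletal muscle markers had a median log2FC of 3.63 on day 3 and 4.05 on day 5, where 4 were called higher and 1 lower, and their sum was 417 CPM in HT3 replicate 2 and 375 in HT5 replicate 1 but 57.8 to 115 in all other samples. Without HT3 replicate 2 the count of members called on day 3 was 3, and without HT5 replicate 1 that of day 5 was 19, both as with all samples. Beside these marker calls, 0.517% of all genes tested were called higher on day 3, 15.9% on day 5 and 23.7% on day 7. The shares called lower were 0.517%, 15.4% and 23.7%. The part of such shifts in cell markers in the results below was not tested.

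Few members were called higher in hyperoxia on day 3, and most were on days 5 and 7. On day 3, 3 of the 32 members rose in hyperoxia, CDKN1A, EDA2R and AEN, and none fell. On day 5, 19 rose and none fell, and on day 7, 20 rose and 2 fell, APAF1 and SESN1. Of all genes tested, 0.517% were called higher on day 3, 15.9% on day 5 and 23.7% on day 7, and 0.517%, 15.4% and 23.7% were called lower. The median log2FC of the members was 0.34 on day 3, 1.21 on day 5 and 1.19 on day 7, beside medians of 0.00, -0.02 and -0.01 over all genes tested.

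The DEG limits were passed by 3 members on day 3, 12 on day 5 and 11 on day 7, all of them upward, where 0.0533%, 0.822% and 1.75% of all genes tested passed them upward. These were 12 different members in all. CDKN1A, BTG2, GADD45A, PLK3 and PHLDA3 restrain growth, MDM2 feeds back on p53, EDA2R is a death receptor, AEN and ZMAT3 act in apoptosis or RNA control, TIGAR is metabolic, and RRM2B and XPC serve DNA synthesis and repair. Every HT5 and HT7 sample lay above every normoxia sample of any day for 18 of the 32 members, among them these 12, which were chosen on the same samples, and for 15.8% of all genes tested. The study itself picked CDKN1A, EDA2R and AEN for its list of day 3 genes, and MDM2 and EDA2R as genes of interest, from these same samples, so their rise is no independent evidence. The DEG count of day 3 was 1 with the replicate block, 1 without HT3 replicate 1 and 0 without NT3 replicate 1, 2 or 3. That of day 5 was 5 without HT5 replicate 2, where CDKN1A (log2FC 4.67), PHLDA3 (2.90), EDA2R (4.43), AEN (3.16) and TIGAR (3.04) remained. With the replicate block GADD45A and RRM2B no longer passed the limits on day 5. The day 5 count was 2 when the 5 samples of that day were fitted alone. That fit called 18 of the same 19 members, lost FAS (adjusted p = 0.0562) and gained TP53INP1 (adjusted p = 0.0393).

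**Figure D1:**
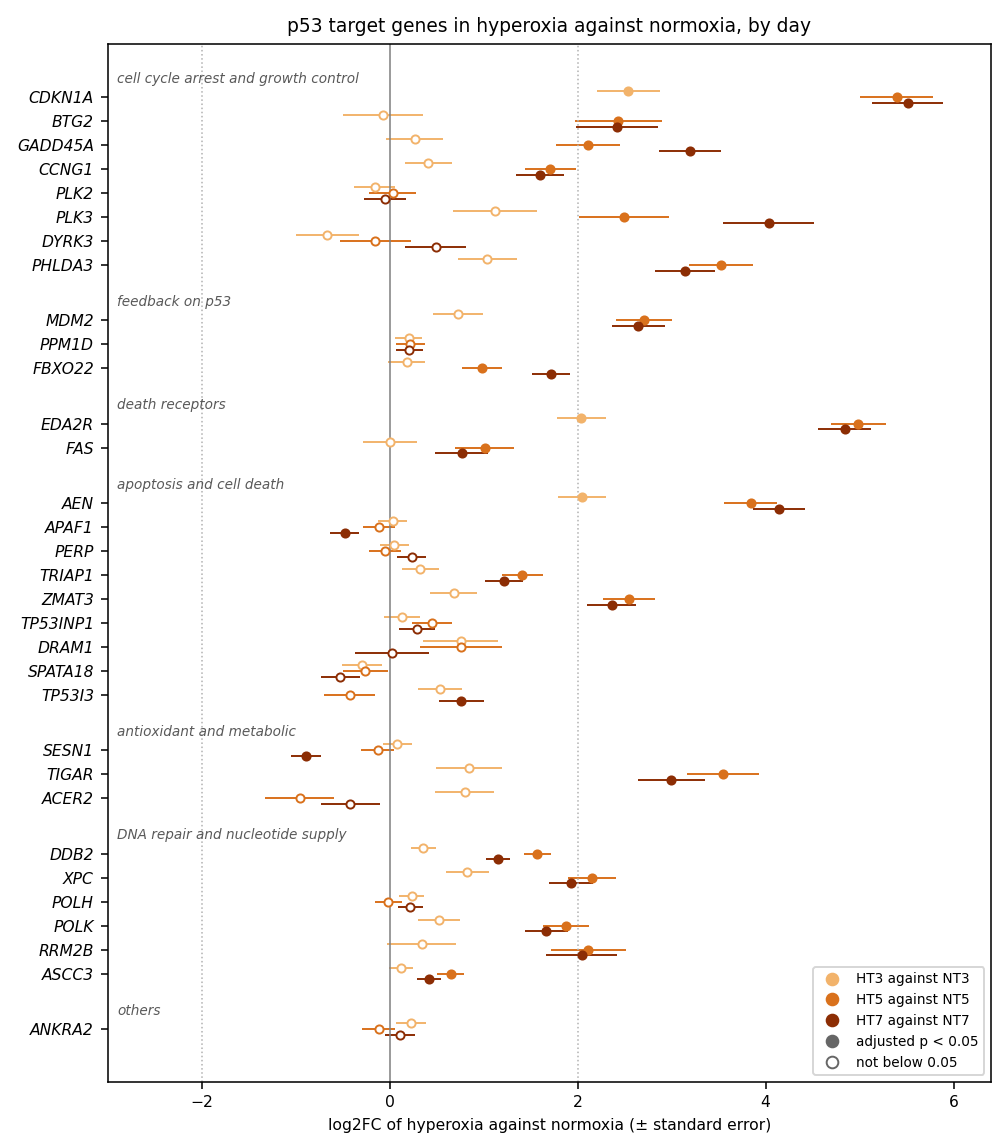
Log2FC of hyperoxia against normoxia (x axis) with its SE (bars) for the 32 members (y axis, grouped by role), 1 point per day, filled where the adjusted p was under 0.05. Dotted lines mark a log2FC of -2 and 2. On day 3 the filled points are CDKN1A, EDA2R and AEN, while 19 members are filled on day 5 and 22 on day 7, of which APAF1 and SESN1 lie below 0.

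Samples of both conditions were also compared without a model. On day 3, all HT3 samples lay above all NT3 samples for 13 members and below for 2, and 17 overlapped, where 12.8% of all genes tested lay fully above and 13.9% fully below. On day 5, 20 members lay above, 2 below and 10 overlapped, beside 26.5% above and 29.2% below among all genes tested. The same numbers of members, 20, 2 and 10, were found on day 7, beside 27.3% and 27.2%.

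Of the 8 members that arrest the cell cycle or restrain growth, 1 rose on day 3 and 6 rose on days 5 and 7. CDKN1A encodes p21, the inhibitor of cyclin-dependent kinases through which p53 holds cells before DNA synthesis. It lies on chromosome 12, 26615148 to 26621177, in the rabbit build OryCun2.0 that also applies to the positions below. Its CPM were 16.4, 22.7 and 23.1 in NT3 and 106, 97.1 and 158 in HT3. They were 34.4, 23 and 21.7 in NT5 against 677 and 1539.6 in HT5, and 23.9, 26.4 and 36 in NT7 against 1012, 1058 and 1868 in HT7. The groups did not overlap on any day, and the lowest HT5 or HT7 sample stood far above the highest normoxia sample. The log2FC was 2.54 ± 0.34 on day 3 (adjusted p = 0.00177), 5.39 ± 0.39 on day 5 (adjusted p = 2.24e-06) and 5.51 ± 0.38 on day 7 (adjusted p = 3.55e-07), the largest among the members on each of the 3 days, with 45.6-fold more in HT7 than in NT7. With the replicate number as a block, the day 3 value kept its call but was no longer a DEG (adjusted p = 0.0161).

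BTG2, an antiproliferative protein that works with the mRNA deadenylation machinery, lies on chromosome 16, 68472410 to 68475024, and its entry overlaps that of PRELP on the same strand. On day 3 its samples overlapped, with 17.2, 13.3 and 25.3 CPM in HT3 and 19.2, 19.9 and 19.5 in NT3. HT5 held 44.6 and 176 CPM against 16.6, 17 and 27.7 in NT5, and HT7 held 126, 55.7 and 112 against 23.4, 17.5 and 14 in NT7. Both later days were separate from normoxia, at a log2FC of 2.43 ± 0.46 (adjusted p = 0.00161) and 2.42 ± 0.43 (adjusted p = 0.000399). The day 5 call was lost without HT5 replicate 2, with a log2FC of 1.10 and an adjusted p of 0.106.

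GADD45A, a stress protein that binds cell cycle and repair factors and activates stress kinases, lies on chromosome 13, 98577791 to 98580288. It held 42, 45.8 and 41.3 CPM in NT3 and 49.9, 41 and 64.3 in HT3, which overlapped. Its CPM were 94.7 and 244 in HT5 against 40.5, 39.7 and 37.6 in NT5, and 602, 260.1 and 488 in HT7 against 43, 53.3 and 50.8 in NT7. Hyperoxia was above normoxia in every sample of days 5 and 7, and the log2FC was 2.11 ± 0.34 (adjusted p = 0.00058) and 3.20 ± 0.33 (adjusted p = 5.69e-06). Without HT5 replicate 2 the day 5 value was 1.25 and below the DEG limit. With the replicate block it was 1.93 (adjusted p = 0.0109), called but not a DEG.

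PLK3, a polo-like kinase that responds to DNA damage and oxidants, lies on chromosome 13, 121823611 to 121827896. Its CPM were 8.46, 5.14 and 7.23 in NT3 and 15.3, 10.8 and 19.3 in HT3, separate but not called (log2FC 1.12 ± 0.45, adjusted p = 0.241). On day 5 it held 24.6 and 72.9 CPM in HT5 against 8.18, 6.43 and 11.3 in NT5, and on day 7 136, 45.7 and 150 in HT7 against 8.82, 5.33 and 6.11 in NT7. The rise was 2.49 ± 0.48 on day 5 (adjusted p = 0.00186) and 4.03 ± 0.48 on day 7 (adjusted p = 1.82e-05), and HT7 replicate 2 was the lowest of its group. The day 5 call was lost without HT5 replicate 2 (log2FC 1.49, adjusted p = 0.0797).

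PHLDA3, a small protein that keeps the survival kinase AKT from the membrane, lies on chromosome 16, 70060580 to 70060957. HT3 samples had 17.9, 12.4 and 19.7 CPM and NT3 samples 9.19, 6.55 and 8.59, which did not overlap, but the gene was not called by edgeR (log2FC 1.04 ± 0.31), unlike by DESeq2 (adjusted p = 0.028). Its CPM were 68.9 and 142 in HT5 against 9.15, 7.89 and 10.3 in NT5, and 139, 88.8 and 125 in HT7 against 19.3, 11.9 and 8.66 in NT7. The log2FC was 3.53 ± 0.34 (adjusted p = 3.04e-05) and 3.14 ± 0.32 (adjusted p = 5.4e-06).

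CCNG1, cyclin G1, which brings a phosphatase to MDM2, rose without passing the DEG limit. It held 174, 158 and 119.7 CPM in HT3 and 108, 88.2 and 144 in NT3, which overlapped, then 198 and 439 in HT5 against 93.1, 91.7 and 107 in NT5 and 344, 265 and 389.8 in HT7 against 121, 112 and 96.8 in NT7. Day 5 gave 1.71 ± 0.28 (adjusted p = 0.000616) and day 7 gave 1.60 ± 0.26 (adjusted p = 0.000166) on the log2FC scale, with no overlap on either day. PLK2, a polo-like kinase of centriole duplication, and DYRK3, a kinase that dissolves stress granules, were not called on any day. PLK2 had a log2FC of -0.16, 0.03 and -0.05 on the 3 days, and DYRK3 of -0.66, -0.15 and 0.49. Thus PLK2 and PLK3, members of 1 kinase family, had day 7 values of -0.05 ± 0.22 and 4.03 ± 0.48, a difference between genes for which no test was run.

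**Figure D2:**
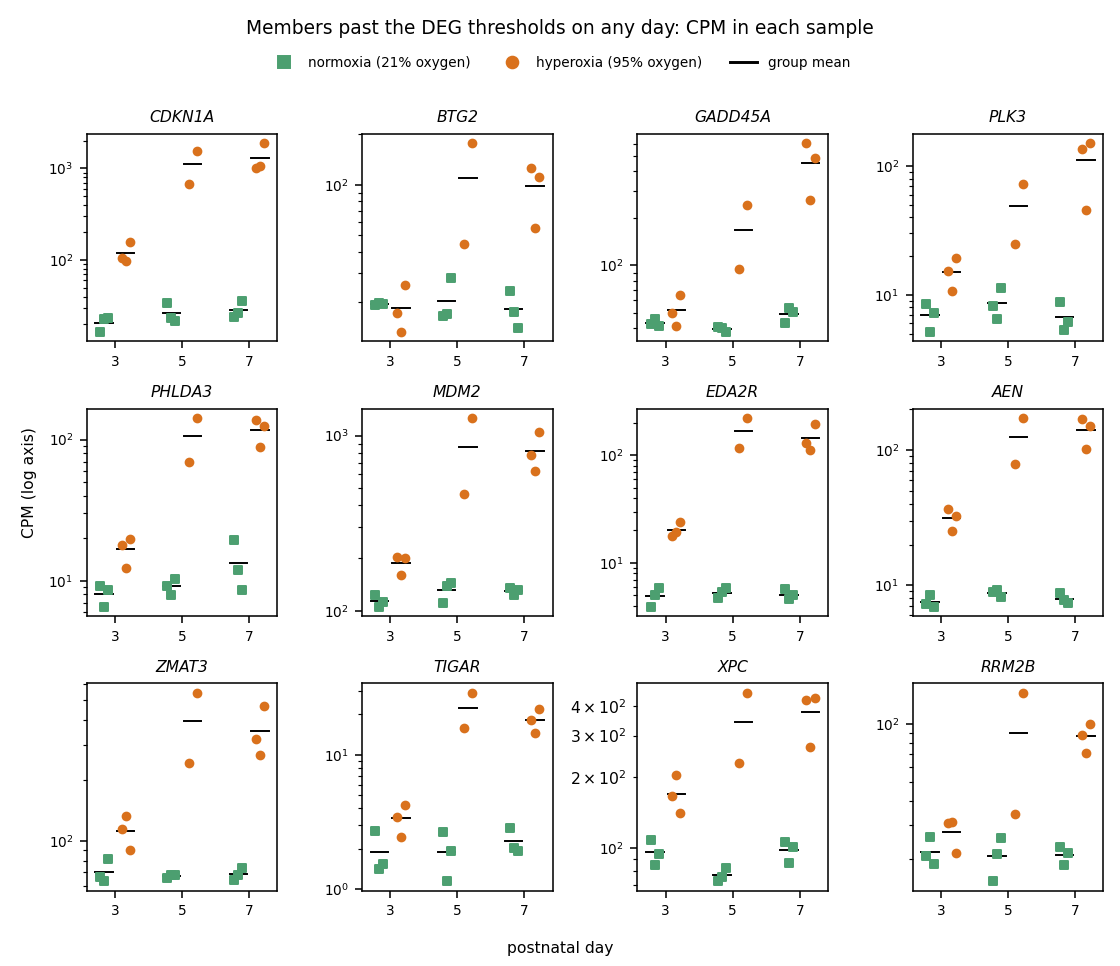
CPM (y axes, log scale, each panel with its own range) by postnatal day (x axes) for the 12 members past the DEG limits on any day, with squares for normoxia samples, circles for hyperoxia samples and a line for each group mean. In every panel the HT5 and HT7 samples lie above all normoxia samples, and the upper of the pair of HT5 samples is replicate 2.

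Among the 3 members that act back on p53, MDM2 and FBXO22 rose on days 5 and 7 and PPM1D was not called. MDM2, the ubiquitin ligase that marks p53 for degradation, lies on chromosome 4, 47739150 to 47811715. Its CPM were 123, 106 and 113 in NT3 and 202, 160.4 and 201 in HT3, which did not overlap. HT5 held 467 and 1257 CPM against 112, 139 and 145 in NT5, and HT7 held 771, 630.4 and 1049 against 135, 124 and 132 in NT7, so that every hyperoxia sample was higher. The log2FC was 0.72 ± 0.27 on day 3 (adjusted p = 0.207), 2.71 ± 0.30 on day 5 (adjusted p = 6.23e-05) and 2.65 ± 0.28 on day 7 (adjusted p = 7e-06). When the 6 samples of day 3 were fitted alone, the day 3 rise passed (adjusted p = 0.0312). Without HT5 replicate 2 the day 5 value was 1.81 and below the DEG limit. Another entry named MDM2 held 0.257% of the counts under that symbol and was not used.

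FBXO22, an F-box protein that takes part in turning over methylated p53, held 25, 20.9 and 23.3 CPM in NT3 and 25.3, 24.5 and 28.8 in HT3. It held 30.7 and 56.3 in HT5 against 19.3, 23.7 and 23 in NT5 and 88.9, 57.9 and 82.2 in HT7 against 24.3, 22.4 and 22.9 in NT7. The groups overlapped on day 3 only, and the log2FC was 0.98 ± 0.22 (adjusted p = 0.00386) and 1.72 ± 0.20 (adjusted p = 1.44e-05). On day 5 the call was lost without HT5 replicate 2 (adjusted p = 0.17). PPM1D, the phosphatase WIP1 that reverses p53 phosphorylation, lay between 20.4 and 33.7 CPM over all samples, with a log2FC of 0.20 ± 0.14, 0.22 ± 0.16 and 0.21 ± 0.14 on the 3 days and adjusted p of 0.521, 0.293 and 0.231.

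EDA2R and FAS are receptors of the tumour necrosis factor family that can signal cell death. EDA2R, the receptor of ectodysplasin A2, lies on chromosome X, 45563827 to 45581103. It held 3.92, 4.99 and 5.86 CPM in NT3 and 17.7, 19.2 and 24 in HT3, 4.73, 5.41 and 5.79 in NT5 and 116 and 221 in HT5, and 5.67, 4.59 and 4.98 in NT7 and 129.9, 112 and 196 in HT7. No group of hyperoxia samples overlapped any group of normoxia samples. The rise was 2.04 ± 0.26 on day 3 (adjusted p = 0.00177), 4.99 ± 0.29 on day 5 (adjusted p = 2.28e-07) and 4.84 ± 0.28 on day 7 (adjusted p = 1.43e-07) on the log2FC scale. With the replicate block the day 3 adjusted p was 0.00855, the one member of the 3 that stayed a DEG.

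FAS, the receptor of the FAS ligand, had 10.1, 8.67 and 12.6 CPM in NT3 and 10.4, 8.75 and 12.3 in HT3, which lay in the same range. Its CPM were 20 and 22 in HT5 against 14.4, 7.32 and 9.51 in NT5, and 20.6, 15.9 and 30 in HT7 against 16.3, 8.90 and 14 in NT7, where HT7 replicate 2 fell below NT7 replicate 1. FAS was called on both days, at 1.01 ± 0.31 (adjusted p = 0.0237) and 0.77 ± 0.28 (adjusted p = 0.0374). Neither call was firm. Of the fits that left out 1 sample, 3 of 5 lost it on day 5 (without HT5 replicate 2, NT5 replicate 2 or NT5 replicate 3) and 4 of 6 on day 7 (without HT7 replicate 1 or 3, or NT7 replicate 2 or 3). It was also lost on both days when only the samples of that day were fitted (adjusted p = 0.0562 and 0.0726).

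Of the 9 members found with roles in apoptosis or cell death, 1 rose on day 3, 3 on day 5 and 4 on day 7, and APAF1 fell on day 7. AEN, a nuclease that degrades DNA during apoptosis, was counted on the short scaffold GL019705, 255 to 2672, at a locus it shares with the interferon-induced exonuclease ISG20. The values of both are the same in the table and cannot be separated. They were 7.28, 8.52 and 6.94 CPM in NT3 and 36.6, 25 and 32.5 in HT3, 8.91, 9.23 and 8.16 in NT5 and 79.1 and 172 in HT5, and 8.75, 7.76 and 7.41 in NT7 and 170.3, 102 and 149.9 in HT7. All hyperoxia samples stood above all normoxia samples, with a log2FC of 2.05 ± 0.26 (adjusted p = 0.00177), 3.84 ± 0.28 (adjusted p = 2.24e-06) and 4.14 ± 0.27 (adjusted p = 2.36e-07) on days 3, 5 and 7. The replicate block left the day 3 value called but no longer a DEG (adjusted p = 0.0161).

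ZMAT3, a zinc finger protein that binds RNA and changes splicing, lies on chromosome 14, 74371491 to 74497748. Its CPM were 66.2, 63.1 and 81.5 in NT3 and 114, 134 and 90.3 in HT3, separate but not called (log2FC 0.68 ± 0.25, adjusted p = 0.205). They were 243 and 543 in HT5 against 65.7, 67.7 and 68.2 in NT5 and 320.2, 268 and 466 in HT7 against 63.9, 67.7 and 73.5 in NT7. The rise was 2.55 ± 0.28 on day 5 (adjusted p = 6.23e-05) and 2.36 ± 0.26 on day 7 (adjusted p = 8.77e-06), and without HT5 replicate 2 the day 5 value of 1.84 lay below the DEG limit.

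TRIAP1, a small mitochondrial protein known to protect cells from apoptosis, also rose. It held 10.6, 11.4 and 11.1 CPM in NT3 and 15.3, 14 and 12.3 in HT3, then 24.7 and 30.6 in HT5 against 11.9, 9.36 and 9.92 in NT5 and 35.8, 20.3 and 26 in HT7 against 12.4, 9.38 and 13.5 in NT7. Hyperoxia samples were above normoxia on each day, and the calls were on day 5 (1.41 ± 0.22, adjusted p = 0.000472) and day 7 (1.22 ± 0.20, adjusted p = 0.000202). Its entry overlaps GATC on the opposite strand, and whether the counting used the strand is not given in the sources used here.

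TP53I3, an oxidoreductase also known as PIG3, was called on day 7 alone. Its CPM were 21.6, 13.9 and 18.7 in HT7 and 10.9, 10.6 and 10.5 in NT7, without overlap (log2FC 0.76 ± 0.24, adjusted p = 0.0151), and the call was lost without HT7 replicate 1 (adjusted p = 0.0691). On day 5 its HT5 samples held 6.12 and 7.41 CPM and its NT5 samples 6.30, 9.99 and 11, a log2FC of -0.42 ± 0.27 (adjusted p = 0.247).

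APAF1, the scaffold of the apoptosome that activates caspase 9, went the other way. It held 28.4, 40.2 and 38.5 CPM in HT7 and 52.3, 51.1 and 45.8 in NT7, so that every HT7 sample was below every NT7 sample. The log2FC on day 7 was -0.48 ± 0.15 (adjusted p = 0.0183), and it was lost in 3 of 6 fits that left out 1 sample (HT7 replicate 1, NT7 replicate 1 or NT7 replicate 2). On days 3 and 5 its groups overlapped, at 0.03 ± 0.15 and -0.12 ± 0.17.

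PERP, a desmosome protein, TP53INP1 and DRAM1, which act in autophagy, and SPATA18, which acts in mitochondrial quality control, were not called on any day. TP53INP1 had a log2FC of 0.45 ± 0.21 on day 5 (adjusted p = 0.115), which passed when only the samples of that day were fitted (adjusted p = 0.0393). PERP stayed between 16.3 and 24.6 CPM in all samples. DRAM1 varied within groups, with 294 and 102 CPM in the HT5 samples and 179.9, 78.4 and 92.7 in NT5. SPATA18 was the member with a log2FC below 0 on all 3 days, at -0.29 ± 0.21, -0.26 ± 0.24 and -0.52 ± 0.21, and its day 7 adjusted p was 0.055 by edgeR and 0.0407 by DESeq2.

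**Figure D3:**
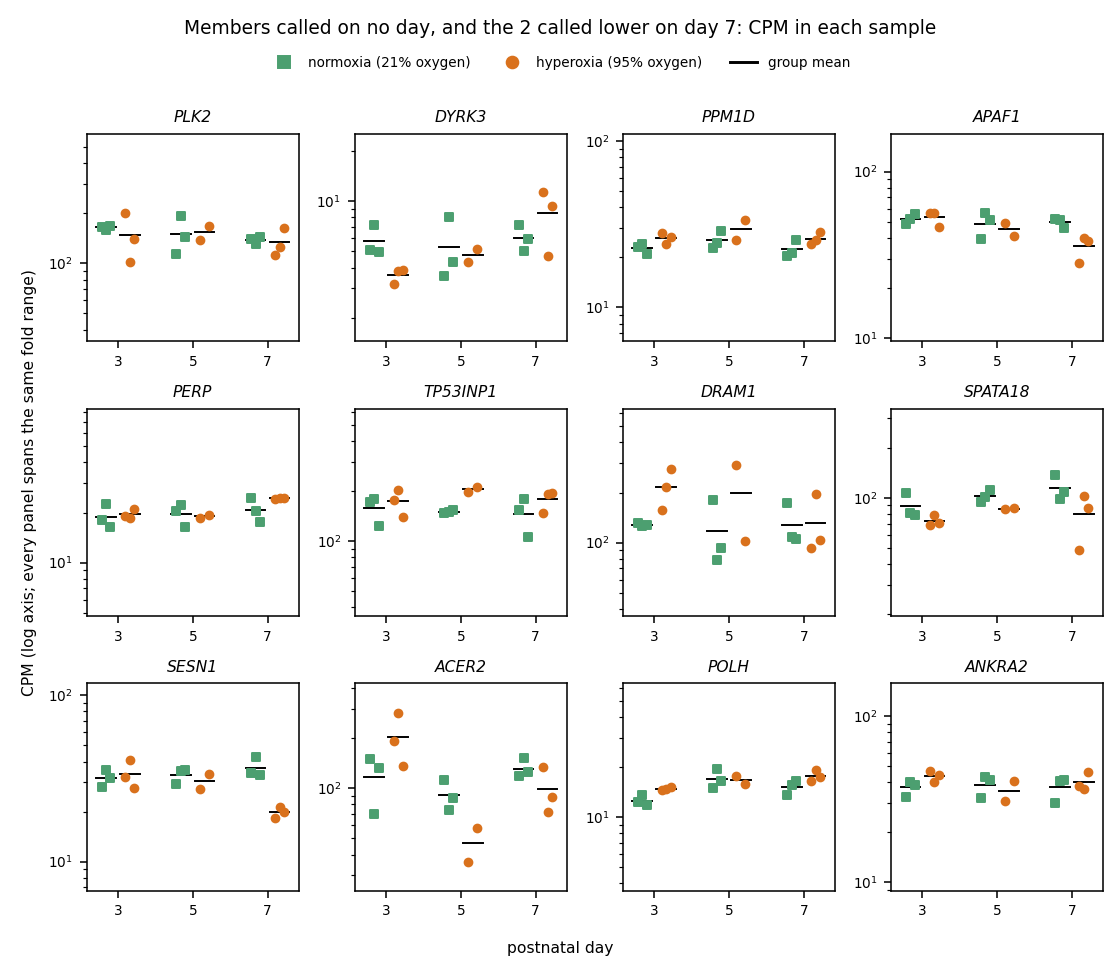
CPM (y axes, log scale, each panel spanning the same fold range) by postnatal day (x axes) for the 10 members called on no day and for APAF1 and SESN1, which fell on day 7, with squares for normoxia samples, circles for hyperoxia samples and a line for each group mean. In SESN1 the HT7 samples lie at 18.4 to 21.3 CPM, below all other samples, whereas most other panels overlap.

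The 3 members found with antioxidant or metabolic roles differed from each other. TIGAR, which lowers fructose-2,6-bisphosphate and so steers glucose into the pentose phosphate pathway, lies on chromosome 8, 30430210 to 30451074. It held 2.69, 1.41 and 1.54 CPM in NT3 and 3.43, 2.44 and 4.26 in HT3, which overlapped. Its CPM were 15.9 and 28.8 in HT5 against 2.67, 1.15 and 1.91 in NT5 and 18.1, 14.5 and 21.9 in HT7 against 2.87, 2.02 and 1.93 in NT7. The later groups were separate, at a log2FC of 3.54 ± 0.38 (adjusted p = 6.15e-05) and 3.00 ± 0.36 (adjusted p = 1.69e-05).

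SESN1, sestrin 1, which restrains the growth kinase mTORC1 under stress, fell. On day 7 it held 18.4, 21.3 and 19.9 CPM in HT7 and 34.2, 42.8 and 33.3 in NT7, without overlap, at a log2FC of -0.89 ± 0.16 (adjusted p = 0.000405). On the earlier days hyperoxia and normoxia overlapped, with 32.2, 41.1 and 27.7 CPM in HT3 and 28.2, 35.4 and 31.7 in NT3, and 27.4 and 33.5 in HT5 and 29.4, 35 and 35.4 in NT5. Its paralog SESN2, which is not among the members, went up, with a log2FC of 3.25 ± 0.33 on day 5 (adjusted p = 4.45e-05) and 3.45 ± 0.32 on day 7 (adjusted p = 2.94e-06). ACER2, a ceramidase of the Golgi, was not called by edgeR, with 0.80 ± 0.32, -0.95 ± 0.37 and -0.42 ± 0.32 on the 3 days. On day 5 its HT5 samples held 36.3 and 57.9 CPM, below the 113, 74 and 87.6 of NT5, with an adjusted p of 0.0591 by edgeR and 0.0268 by DESeq2.

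Of the 6 members that repair DNA or supply nucleotides, 5 rose on both later days and POLH was not called. XPC, which recognizes distorted DNA in nucleotide excision repair, lies on chromosome 9, 9577407 to 9794230, and its entry overlaps those of CHCHD4 on the same strand and TMEM43 on the other. It held 109, 85 and 94.2 CPM in NT3 and 167, 204 and 141 in HT3, which did not overlap (log2FC 0.83 ± 0.23, adjusted p = 0.0957). DESeq2 called this rise (adjusted p = 0.021), as did the fit of the day 3 samples alone (adjusted p = 0.0417). HT5 had 230.3 and 455 CPM against 72.5, 75.9 and 82.5 in NT5, and HT7 had 426, 268 and 434 against 107, 86.9 and 101 in NT7. Hyperoxia was higher in every sample, and XPC was a DEG on day 5 (2.15 ± 0.25, adjusted p = 8.24e-05) while on day 7 its log2FC of 1.93 ± 0.23 (adjusted p = 1.91e-05) lay just under the limit. Without HT5 replicate 2 the day 5 value was 1.56. DDB2, the partner that finds ultraviolet damage, held 66.4, 66.8 and 61.2 CPM in HT3 against 54.7, 46.8 and 50 in NT3, 147 and 179 in HT5 against 54.7, 52.3 and 57.3 in NT5, and 141, 102 and 138 in HT7 against 49.8, 61.6 and 60.2 in NT7. It was separate on each day, with 0.36 ± 0.13 (adjusted p = 0.198), 1.57 ± 0.14 (adjusted p = 1.51e-05) and 1.15 ± 0.13 (adjusted p = 1.13e-05) on the log2FC scale.

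RRM2B, the ribonucleotide reductase subunit that supplies nucleotides outside DNA synthesis phase, lies on chromosome 3, 117671207 to 117762915. Its CPM were 30.6, 31 and 21.4 in HT3 and 20.7, 26 and 18.8 in NT3, 34.1 and 146 in HT5 and 15.3, 21.2 and 25.8 in NT5, and 88, 71.1 and 101 in HT7 and 23, 18.6 and 21.4 in NT7. The groups overlapped on day 3 and not later, and the log2FC was 2.11 ± 0.40 (adjusted p = 0.00166) and 2.04 ± 0.38 (adjusted p = 0.000483). With the replicate block the day 5 value was 1.99 (adjusted p = 0.0048), just under the DEG limit. The pair of HT5 samples lay far apart, and without replicate 2 the day 5 value was 0.70 (adjusted p = 0.136).

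POLK, a DNA polymerase that copies past damaged bases, held 61, 44 and 58.9 CPM in HT3 and 40.4, 34.1 and 39.1 in NT3, 89.5 and 172 in HT5 and 27.9, 36.5 and 42.3 in NT5, and 123, 99.9 and 143 in HT7 and 41.6, 32.7 and 41.1 in NT7. All hyperoxia samples were higher on each day, and it was called on day 5 (1.88 ± 0.24, adjusted p = 0.000173) and day 7 (1.67 ± 0.23, adjusted p = 4.85e-05). POLH, a polymerase with a similar task, stayed between 11.9 and 19.3 CPM in all samples, with -0.01 ± 0.15 on day 5 and 0.22 ± 0.13 on day 7. ASCC3, a helicase in the repair of alkylated DNA, was called at 0.65 ± 0.14 (adjusted p = 0.00366) and 0.42 ± 0.13 (adjusted p = 0.0139). Its day 5 call was lost without HT5 replicate 2 (adjusted p = 0.117), and its day 7 call without HT7 replicate 3 or NT7 replicate 2. ANKRA2, an ankyrin repeat protein, was not called, at 0.23 ± 0.16, -0.12 ± 0.18 and 0.11 ± 0.16 on days 3, 5 and 7.

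Over the 3 days, 3 members were called on every day, 16 on days 5 and 7 alone, 3 on day 7 alone and 10 on no day. Of all genes tested, 0.799% were called on every day, 25.8% on days 5 and 7 alone, 20.7% on day 7 alone and 47.9% on no day. The 10 were ACER2, ANKRA2, DRAM1, DYRK3, PERP, PLK2, POLH, PPM1D, SPATA18 and TP53INP1, whose log2FC ranged from -0.95 to 0.80 on any day. All members called on day 5 were called again on day 7. The sign was above 0 on all 3 days for 20 members, below 0 for 1 and mixed for 11, where 29.6% of all genes tested lay above 0 on all 3 days and 30.7% below.

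Whether the response itself changed from day 3 to day 7 was tested as the difference of the 2 log2FC. It was called upward for 17 members and downward for 1, SESN1, and 9.52% of all genes tested were called upward and 11% downward. The largest was CDKN1A at 2.97 ± 0.46 (adjusted p = 0.00149), followed by GADD45A at 2.93 ± 0.44 (adjusted p = 0.00127) and PLK3 at 2.91 ± 0.64 (adjusted p = 0.00701). SESN1 changed by -0.97 ± 0.22 (adjusted p = 0.00906). Of those called, CCNG1, TRIAP1, XPC, POLK and RRM2B lost the call in some fits that left out 1 sample, with adjusted p up to 0.097, and leaving out any of the 12 samples other than HT7 replicate 2 cost at least 1 of these calls. The count then ranged from 13 to 19. With the replicate block CCNG1 missed the limit (adjusted p = 0.0577), as did TRIAP1 when only these groups were fitted (adjusted p = 0.0515).

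Within hyperoxia, HT7 exceeded HT3 in 20 members and was lower in 3, APAF1, SESN1 and ACER2, where 22.3% of all genes tested were called higher and 22% lower. These comparisons share the HT3 and HT7 samples with those above. The fall of ACER2 was lost without HT3 replicate 2, HT7 replicate 2 or HT7 replicate 3, and the rise of ASCC3 without HT3 replicate 1, HT3 replicate 2 or HT7 replicate 3, and in the fit of these groups alone (adjusted p = 0.0647). Within normoxia, no member was called between NT7 and NT3, as was no gene at all (0.0%) by edgeR, and 1 member and 824 genes had an unadjusted p under 0.05. DESeq2 called 0 members there too. The members' median log2FC of NT7 against NT3 was 0.07. A comparison of the responses on days 7 and 5, added after seeing the data, called 0 members by edgeR and 0 by DESeq2, with 6 members at an unadjusted p under 0.05 by edgeR. Of all genes tested 0.0% were called and 1125 had such a p. PLK3 had the largest of these differences, 1.54 ± 0.67 (adjusted p = 0.554), followed by TP53I3 at 1.19 ± 0.36 (adjusted p = 0.464) and GADD45A at 1.09 ± 0.46 (adjusted p = 0.551).

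Samples within a hyperoxia group stood in a similar order for many members. Of the 19 members called on day 5, HT5 replicate 2 was above replicate 1 in all 19, as in 84.6% of all 2093 genes called higher that day and 48.8% of all genes tested. Of the 20 called higher on day 7, HT7 replicate 2 was the lowest of its group in 18 and replicate 3 the highest in 12. Among all 3114 genes called higher on day 7 these shares were 73.2% and 36.7%, so that the order was shared with other genes that rose. The 7 alveolar type 2 cell markers stood in another order, at summed CPM of 33180 and 12656 in HT5 replicates 1 and 2 and of 13537, 29591 and 16333 in HT7 replicates 1, 2 and 3. Their sum was thus highest in the samples where the members were low, beside 12586 to 24865 in normoxia, and its part in the order was not tested. The mean over members of the deviation of log2(CPM + 0.5) from each gene's mean over all samples was -0.59 to -0.34 in the 9 normoxia samples. It was -0.10 to -0.02 in HT3, 0.52 and 1.16 in HT5, and 1.05, 0.76 and 1.20 in HT7 replicates 1, 2 and 3. No hyperoxia sample reached down to the normoxia range.

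Other genes of the pathway came from 3 lists. Of 25 tested genes that regulate p53 or act with it, 0 were called on day 3 by edgeR (2 at an unadjusted p under 0.05) and 0 by DESeq2, 4 rose and 4 fell on day 5, and 8 rose and 5 fell on day 7. Those calls are 16% higher and 16% lower on day 5 and 32% and 20% on day 7. Of all genes tested, 15.9% and 15.4% were called on day 5 and 23.7% and 23.7% on day 7. The list was near that background on day 5. On day 7 its rises numbered 3 without HT7 replicate 3 or without NT7 replicate 1, so no excess over the background is read from them. MDM4, the relative of MDM2 that blocks p53 activity, fell, with 126, 171 and 144 CPM in HT7 below the 235, 239 and 225 of NT7 (log2FC -0.66 ± 0.11, adjusted p = 0.000159). On day 5 it was at -0.38 ± 0.12 (adjusted p = 0.0239), and that call was lost with the replicate block (adjusted p = 0.0734), with the samples of that day alone (adjusted p = 0.0932) and without HT5 replicate 2 or NT5 replicate 2. The 8 calls of day 5 in this list became 0 without HT5 replicate 2 or with the samples of that day alone, 4 with the replicate block, and the 13 of day 7 became 7 without HT7 replicate 3 or without NT7 replicate 1.

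Among 42 tested genes of a further list of p53 targets, SESN2 rose on day 3, 14 rose and 6 fell on day 5, and 17 rose and 8 fell on day 7, of which 0, 4 and 6 were DEGs. The shares are 2.38% higher on day 3, 33.3% higher and 14.3% lower on day 5, and 40.5% and 19% on day 7. Of all genes tested, 0.517% were called higher on day 3, 15.9% higher and 15.4% lower on day 5, and 23.7% and 23.7% on day 7. The share of falls was thus near that background on day 5, and no difference in share was tested. The apoptosis genes BAX and BBC3, whose products promote the release of cytochrome c from mitochondria, rose on both later days. BAX held 145, 86.9 and 124 CPM in HT7 against 38.5, 35.6 and 34.1 in NT7, at a log2FC of 1.55 ± 0.17 on day 5 (adjusted p = 6.89e-05) and 1.72 ± 0.16 on day 7 (adjusted p = 3.27e-06). BBC3 held 30, 25.2 and 30.7 in HT7 against 12.6, 10.1 and 9.35 in NT7, at 1.14 ± 0.23 (adjusted p = 0.00251) and 1.42 ± 0.22 (adjusted p = 0.000113), and its day 5 call was lost without HT5 replicate 2 (adjusted p = 0.0979). PMAIP1, another such gene, had 0 to 16 counts per sample and was not tested. DEGs of this list included the cytokine LIF (log2FC 6.66 ± 0.81 on day 7, adjusted p = 1.94e-05), HES2 (3.48 ± 0.54 on day 5, adjusted p = 0.000498) and SESN2. The 20 calls of day 5 became 11 without HT5 replicate 2, and the rise of SESN2 on day 3 (adjusted p = 0.0492) was lost with the replicate block, with no filter, with robust spread and whenever any 1 of the 6 samples from day 3 was dropped. Without HT3 replicate 3, 2 genes were called lower instead.

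**Figure D4:**
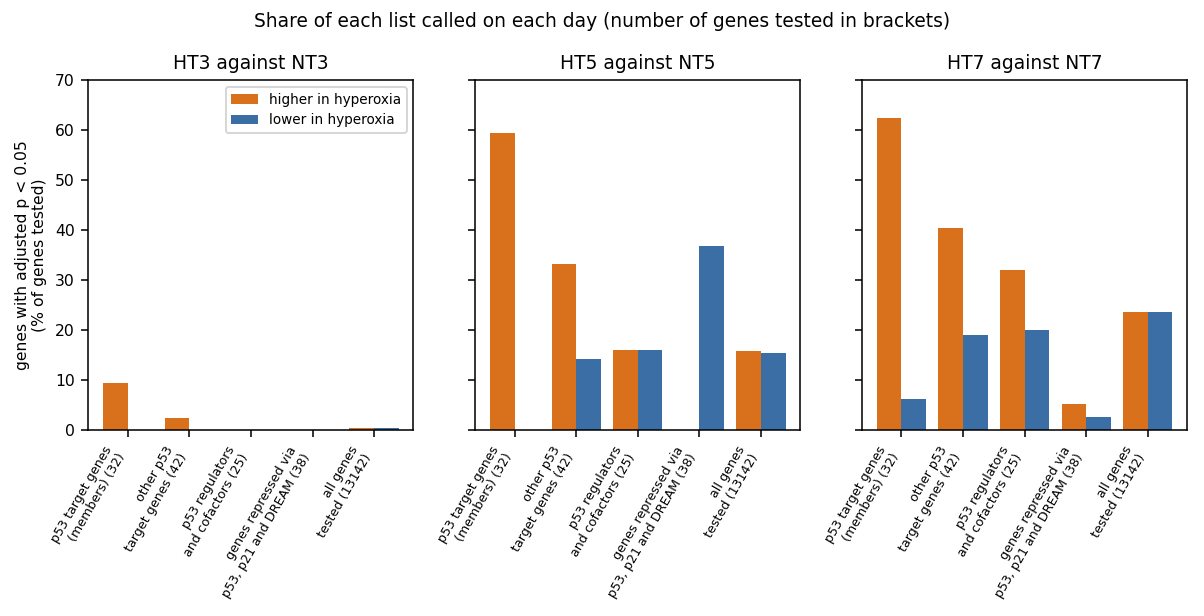
Percent of genes tested with an adjusted p under 0.05 (y axis, bars from 0) that were higher (orange) or lower (blue) in hyperoxia, for the members, 3 further lists and all genes tested (x axis, number of genes tested in brackets), 1 panel per day. On day 7 the members have 62.5% higher and 6.25% lower, beside 23.7% and 23.7% of all genes tested.

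The last list holds genes of the cell cycle, such as cyclins, mitotic kinases and replication factors, that p53 represses through p21 and the DREAM complex. Of the 38 tested, 0 were called on day 3 by edgeR (9 at an unadjusted p under 0.05), 2 by DESeq2 and 6 with the samples of that day alone, though 37 had a log2FC below 0 where 50.1% of all genes tested lay above 0. On day 5, 14 fell and 0 rose, and on day 7 only CCNA2 fell while PCNA and CKS2 rose. On day 5 that is 0.0% higher and 36.8% lower, beside 15.9% and 15.4% of all genes tested. On day 7 it is 5.26% higher and 2.63% lower, beside 23.7% and 23.7%. The median log2FC was -0.67, -1.08 and -0.10 on the 3 days. The count of day 5 rested on single samples, as it was 29 without HT5 replicate 1, 0 without HT5 replicate 2, 5 without NT5 replicate 1 and 7 without NT5 replicate 2. It was 22 with the replicate block, 23 by DESeq2 and 5 with the samples of that day alone. On day 7 the 3 calls became 5 without NT7 replicate 3.

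The level of this list moved within normoxia too. Its mean deviation of log2(CPM + 0.5) was -0.45 to -0.13 in NT3, 0.86 to 1.12 in NT5 and -0.61 to 0.87 in NT7. It was -0.91 to -0.87 in HT3, 0.41 in HT5 replicate 1 and -0.75 in HT5 replicate 2, and -0.20, 0.65 and 0.02 in HT7 replicates 1, 2 and 3. Within HT5 the sample with the higher level of p53 targets had the lower level of this list. In HT7, replicate 3 had the highest level of p53 targets but replicate 1 the lowest level of this list. The HT7 sample with the lowest level of p53 targets, replicate 2, had the highest level of this list. Between days 3 and 7 of hyperoxia both went up together, as 25 of the 38 repressed genes were called higher in HT7 than in HT3 and 0 lower by edgeR, with 25 and 1 by DESeq2 and a median log2FC of 1.20, beside 22.3% higher and 22% lower among all genes tested. The count called ranged from 18 to 24 when 1 sample was left out. Between NT3 and NT7, 0 were called by edgeR (11 at an unadjusted p under 0.05) and 0 by DESeq2, with a median of 0.65. This use of the list was added after seeing the data, and no relation between both levels was tested.

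**Figure D5:**
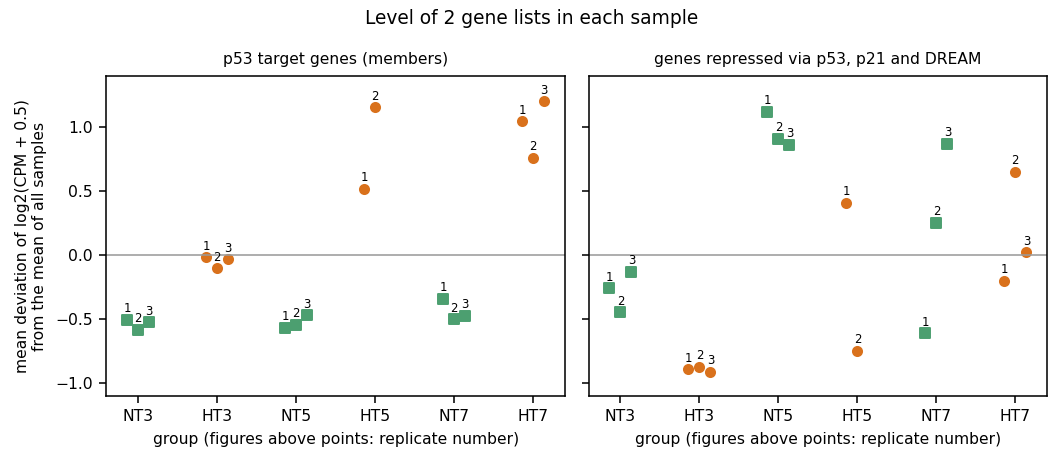
Mean over genes of the deviation of log2(CPM + 0.5) from each gene's mean over all samples (y axis) in each sample, by group (x axis) for the members (left) and the genes repressed through p53, p21 and DREAM (right), with squares for normoxia and circles for hyperoxia, and replicate numbers above the points. The members stand at -0.59 to -0.34 in normoxia and at 0.52 to 1.20 in HT5 and HT7, while the repressed genes range from -0.61 to 1.12 in normoxia.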

How the data were processed

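The authors deposited raw read counts per gene locus for 17 libraries, without normalization. Per the submitters' processing notes, FastQC and STAR 2.7.10a were used with the build OryCun2.0, and locus labels have the StringTie form. The counting program and its use of strand are not given in the sources used here. All sample columns of the table were used.

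Tests used the quasi-likelihood functions of edgeR (4.0.16, R 4.3.3). filterByExpr left 13142 genes, and all 17 samples entered 1 fit of 6 group means after TMM scaling, so that HT5 with 2 samples borrows the spread of the others. Benjamini-Hochberg adjustment ran over all 13142 genes. Log2FC use a prior count of 0.125, and SE is the log2FC divided by the root of the F statistic. Fits were tested on simulated data. Positions are those of the table. For a symbol with several entries, the one with the highest total count was used.

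Members, roles and further lists were chosen with earlier results of these data known, from textbook knowledge. Genes named with every value were members past the DEG limits on any day, called on day 3, called in the difference between days 7 and 3, or leading their role on day 7. Of the other lists, MDM4, BAX, BBC3, PMAIP1 and at most 4 DEGs per list were named, and some genes that this rule covers are not reported here.

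Whether equal replicate numbers pair samples was checked from the correlation of deviations from group means. It was 0.166, 0.131 and 0.199 on day 3, 0.264 and 0.141 on day 5, and 0.174, 0.109 and 0.0695 on day 7. All 3 pairs exceeded 0.1 on day 3, as did both pairs of day 5, where HT5 holds 2 samples. Blocked values therefore stand beside the results of days 3 and 5 where they change a call or a DEG. The labels do not say what the numbers mean, nor that samples come from separate litters, so p-values measure the spread between these samples. No pair of replicates agreed within sampling noise.

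Alternatives were DESeq2 1.42.0, its size factors in edgeR, no filter, a filter of 1 CPM in 2 samples, robust spread, 1 entry per locus, only the groups compared, the replicate block and leaving out each sample. The planned search of promoters for p53 motifs was not run. Figures used matplotlib 3.10.9 in Python 3.11.15.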

Additional observations from a re-analysis of the deposited data

Results flagged for a closer look

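The response to hyperoxia differed between days 7 and 3 in 18 members, by edgeR's quasi-likelihood test of the difference of both log2FC with Benjamini-Hochberg adjustment over all genes tested. Each value below is the day 7 log2FC minus the day 3 log2FC. Among growth and cell cycle genes it was 2.97 for CDKN1A, 2.93 for GADD45A, 2.91 for PLK3, 2.49 for BTG2, 2.10 for PHLDA3 and 1.19 for CCNG1. Among feedback genes it was 1.92 for MDM2 and 1.53 for FBXO22, and for the death receptor EDA2R it was 2.80. Among apoptosis genes it was 2.10 for AEN, 1.68 for ZMAT3 and 0.89 for TRIAP1. For the metabolic genes it was 2.15 for TIGAR and, as the one negative value, -0.97 for SESN1. Among repair genes it was 1.70 for RRM2B, 1.14 for POLK, 1.11 for XPC and 0.79 for DDB2. In the same difference, 9.52% of all genes tested were called upward and 11% downward. Of the cell markers, 4 of 6 alveolar type 1 markers and 3 of 6 endothelial markers were called lower. Their part in the values of the members was not tested.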

How the results depend on the processing

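Counts of called members stayed within 1.5 times of the reported ones in every fit other than day 3, where DESeq2 and the fit of the groups compared alone each called 5. Members past the DEG limits on day 5 numbered 2 when only its samples were fitted. The replicate block changed no call of a member on a single day. With this block the day 3 DEGs became 1, and GADD45A and RRM2B left the day 5 DEGs. CCNG1 then lost its call in the difference between days 7 and 3. When 1 sample was left out, DEGs ranged from 0 to 3 on day 3 and from 5 to 14 on day 5. The tally of recomputed log2FC covers members, MDM4, BAX and BBC3, and beyond single days only genes called there. Of these values, 2107 kept their direction and their side of the limit, and 68 weakened past it. Another 10 strengthened past it and 34 changed sign, none of the last called. FAS on day 3 was 0.0012 with 1 entry per locus, 0.0023 with the groups compared alone and 0.0024 with the block, and DRAM1 on day 7 was -0.0159 with the block. Leaving out 1 sample gave these ranges of log2FC. On day 3, BTG2 ranged from -0.36 to 0.12, PLK2 from -0.45 to 0.048, FAS from -0.13 to 0.16, APAF1 from -0.015 to 0.12, PERP from -0.048 to 0.19, TP53INP1 from -0.018 to 0.26 and SESN1 from -0.087 to 0.21. On day 5, PLK2 ranged from -0.13 to 0.26, DYRK3 from -0.37 to 0.28, PPM1D from -0.014 to 0.41, APAF1 from -0.25 to 0.005, PERP from -0.17 to 0.056, DRAM1 from -0.20 to 1.32, SESN1 from -0.30 to 0.010, POLH from -0.10 to 0.10 and ANKRA2 from -0.35 to 0.064. On day 7, PLK2 ranged from -0.20 to 0.062, DRAM1 from -0.38 to 0.30 and ANKRA2 from -0.025 to 0.19. The cause of these changes was not tested, apart from fewer samples in such fits.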
